A study of Rattus norvegicus with 56 samples.

Results

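The Toll-like receptors are a family of 10 genes, Tlr1 to Tlr10, whose transcripts were followed here in the hippocampus and parietal cortex of young and aged rats after magnetic stimulation of the brain. They were chosen by name. A probe counted as a family member when the transcript accession that the array file gives for it carries the symbol of a receptor in RefSeq. All 10 genes had a probe, 12 probes in all, out of 16581 named genes and 45598 probes on the array. Each gene had a single probe except Tlr6, which had 3 and was counted by the brightest of them, with the other 2 described beside it.

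Toll-like receptors are pattern recognition receptors of the innate immune system. Each binds a class of microbial molecules, and some also bind molecules released by damaged cells. The signal passes through adaptor proteins, of which MyD88 serves nearly all members and TRIF serves Tlr3 and, from endosomes, Tlr4, to kinases that activate NF-kappaB and interferon regulatory factors. Tlr1, Tlr2, Tlr4, Tlr5, Tlr6 and Tlr10 sit at the cell surface, and Tlr3, Tlr7, Tlr8 and Tlr9 bind nucleic acids inside endosomes. In the brain they are best known from microglia, and some members are also described in astrocytes, neurons and endothelial cells.

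The animals were male Long-Evans rats, either young, 6 to 7 months old, or aged, 26 to 27 months old. The labels divide the aged rats into AU (aged unimpaired) and AI (aged impaired) groups. The study's methods describe such a division, by performance in a water maze, for the rats of its brain slice experiment. Rats received either intermittent theta burst stimulation (iTBS), in which short trains of magnetic pulses are delivered through a coil over the skull, or a sham procedure with the coil held away from the head. Every rat, sham animals included, was lightly anesthetized with isoflurane and sedated with Dexmedetomidine, which was reversed with Antisedan, and the tissue was taken 48 h later. The groups held 4 young sham, 4 young iTBS, 4 AU sham, 5 AU iTBS, 4 AI sham and 3 AI iTBS animals, 24 in all, each giving hippocampus and parietal cortex. These numbers follow the labels, and the study's methods give fewer animals for this experiment. As sham and iTBS animals shared the anesthesia and sedation, the contrasts between them compare the stimulation. No untreated animals entered the comparisons, so an effect of the anesthesia itself cannot be measured.

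The 56 arrays comprised a first array for each animal in each region (48), 7 repeats and 1 array without a group. The cortex repeat of AI iTBS animal 2 correlated at 0.688 with AI sham animal 2 and at 0.0931 with its own first array over the 500 most variable probes, so it was left out and the other 6 repeats were averaged with their first arrays. The array without a group came from hippocampus, and its title (young, sham) contradicted its description (aged, stimulated). Between 59.3% and 69.7% of probes were well above background on an array. The tissue labels were matched by marker genes, since in sham animals 3 of 4 hippocampal markers were higher in hippocampus (Neurod6 by 2.06 on the log2 scale) and 4 of 4 cortical markers were lower (Rorb by -0.98). All 12 microglial markers were well above background in both regions. Animals were scanned in 2 batches, 15 first and 9 later. The later batch spans 2 scan days, and in all 4 of its sham animals the cortex was scanned on the earlier of these days and the hippocampus on the other, so region and scan day cannot be told apart there. Of the 7 slides, 4 held arrays of both regions, counting repeats.

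Levels below are log2 signals on a scale where the mean of each array is 0, so that a level of 3 lies 3 log2 units above the average probe. A probe's brightness also depends on its sequence, and levels of different probes are not compared. Of the 10 receptors, 4 were well above background in nearly every animal in both regions, namely Tlr2, Tlr3 and Tlr6 in 24 of 24 animals in each region and Tlr4 in 24 of 24 hippocampi and 23 of 24 cortices. Tlr2 and Tlr6 form pairs that bind bacterial lipopeptides, Tlr3 binds double-stranded RNA, and Tlr4 is the receptor for bacterial lipopolysaccharide. Tlr9, the receptor for unmethylated DNA, was well above background in 24 hippocampi and 15 cortices. Tlr7, which binds single-stranded RNA, was measured in 18 hippocampi and 13 cortices, and Tlr1, the other partner of Tlr2, in 8 and 2. The remaining members were near or below the limit of detection, Tlr8, a further receptor for single-stranded RNA, in 1 animal per region, Tlr10, whose ligands are less well known, in 1 hippocampus and 3 cortices, and Tlr5, the flagellin receptor, in 0 animals of either region. Testing required that at least 3 animals of a region measured a probe, so 7 of the 10 members were tested in each region and 8 in the comparison of regions. No member probe was saturated. The groups were set against each other with limma, with p values adjusted over all probes tested.

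**Figure D1:**
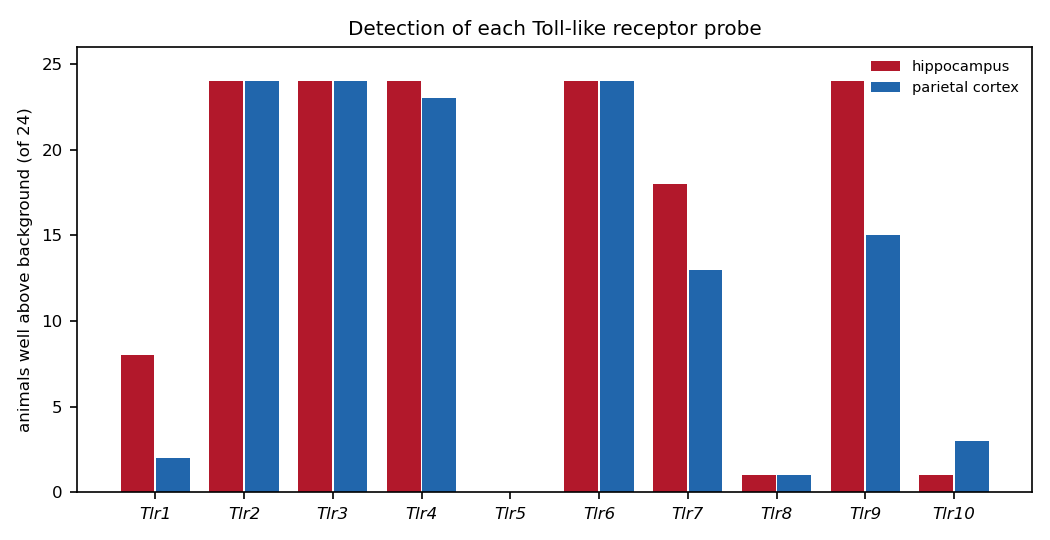
The number of animals, of 24, in which each Toll-like receptor was well above background, by gene and region. Tlr2, Tlr3 and Tlr6 reached 24 in both regions, while Tlr5 stayed at 0 in both.

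The stretch before the transcription start is shown for the receptors that the results turn on, Tlr4 and Tlr6, which are described below between regions, and Tlr3, which is described in each contrast of iTBS. The sequences are the 250 bases before the start of each gene in RefSeq, assembly GRCr8. Capitals mark TTCCTC, which is GAGGAA read on the other strand, the core letters bound by PU.1, a transcription factor of myeloid cells.

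Tlr4, chr5:85160997-85161246 (+): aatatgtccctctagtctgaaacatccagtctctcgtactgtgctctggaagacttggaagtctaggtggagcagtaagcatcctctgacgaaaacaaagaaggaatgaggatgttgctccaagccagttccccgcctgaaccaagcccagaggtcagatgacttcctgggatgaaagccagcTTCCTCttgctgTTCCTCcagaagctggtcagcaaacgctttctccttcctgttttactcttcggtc
Tlr6, chr14:43715559-43715808 (+): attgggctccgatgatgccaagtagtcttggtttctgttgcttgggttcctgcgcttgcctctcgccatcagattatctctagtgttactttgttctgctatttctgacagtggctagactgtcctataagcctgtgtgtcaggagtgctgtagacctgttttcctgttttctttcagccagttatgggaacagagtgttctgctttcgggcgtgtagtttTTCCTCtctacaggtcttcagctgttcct
Tlr3, chr16:53554666-53554915 (+): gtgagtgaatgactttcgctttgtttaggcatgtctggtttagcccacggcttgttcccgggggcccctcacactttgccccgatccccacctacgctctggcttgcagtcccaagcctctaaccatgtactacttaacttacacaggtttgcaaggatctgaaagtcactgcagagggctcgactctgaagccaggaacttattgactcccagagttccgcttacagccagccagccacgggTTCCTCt

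In Tlr4 the letters occurred 67 and 55 bases before the start, in Tlr6 29 bases and in Tlr3 7 bases before it. Searched on both strands, GAGGAA was present in this window in 7 of the 10 members, Tlr7, Tlr8, Tlr9 and Tlr10 among them, and in 23.3% of the 33469 promoters in the table. This describes the letters only, not binding. Tlr6 lies beside Tlr1 and Tlr10 on chromosome 14 in this assembly.

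Across the 6 groups of the hippocampus, the level of Tlr2 was 3.05 ± 0.32 (SD, n = 24), that of Tlr3 2.35 ± 0.47, that of Tlr6 2.16 ± 0.19, that of Tlr4 -0.77 ± 0.41 and that of Tlr9 -1.56 ± 0.21. Group means of Tlr2 lay between 2.81 (young iTBS) and 3.26 (AU iTBS), a range of 0.45 beside an average SD within a group of 0.32. For Tlr3 they ran from 1.89 to 2.64, a range of 0.75 beside an SD within groups of 0.48. For Tlr6 they ran from 1.97 to 2.24, a range of 0.27 beside an SD of 0.20. In order of hippocampal Tlr4, AI iTBS was highest at -0.52 ± 0.57, followed by AU iTBS at -0.66 ± 0.28, AI sham at -0.74 ± 0.34, young sham at -0.75 ± 0.23, AU sham at -0.76 ± 0.56 and young iTBS at -1.18 ± 0.42. No neighbours in this order differed by more than the spread within a group, the largest step being between AU sham and young iTBS.

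In the cortex, the level of Tlr2 was 2.85 ± 0.54 (SD, n = 24), that of Tlr3 2.15 ± 0.46, that of Tlr6 1.83 ± 0.32, and that of Tlr4 -1.39 ± 0.39, while group means of Tlr9 ran from -2.34 to -1.53. AI sham had the lowest mean of Tlr2, 2.50 ± 1.25, with animal 1 at 0.68 while the other 3 animals of the group stood between 2.84 and 3.51. In the hippocampus of that same animal Tlr2 was at 2.95. Group means of Tlr4 in cortex ran from -1.65 in young iTBS to -1.17 in AI sham, with an average SD within groups of 0.36.

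**Figure D2:**
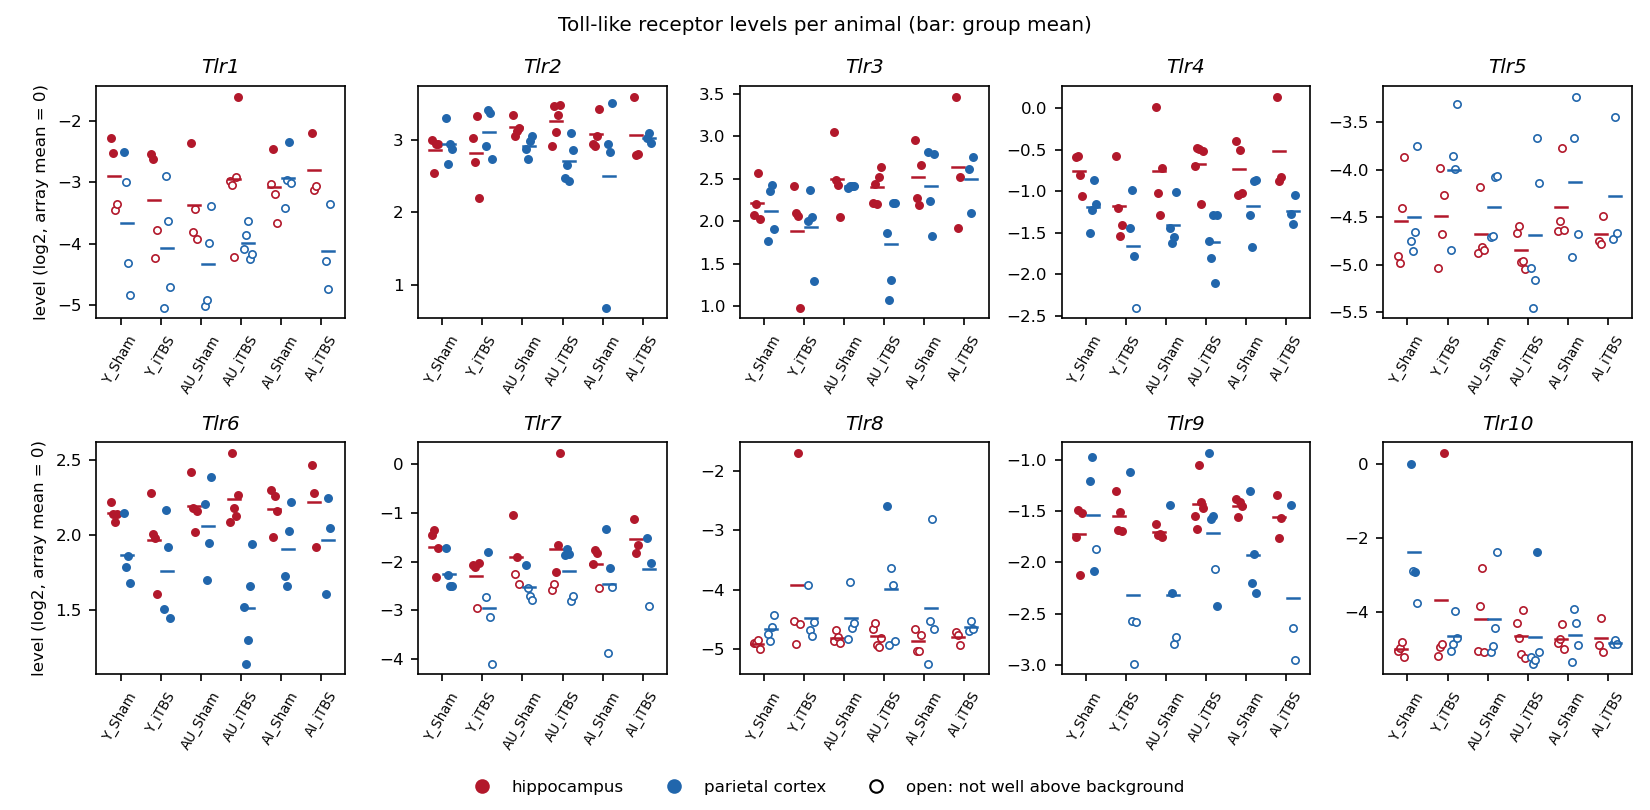
Level of each of the 10 receptors (log2 signal, array mean at 0) in every animal by group, in hippocampus (red) and parietal cortex (blue). Open points were not well above background and bars are group means. The groups overlapped for nearly every receptor, and single points lie far from their group in cortical Tlr2 (0.68) and Tlr10 (0.01) and in hippocampal Tlr10 (0.31) and Tlr8 (-1.70).

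The first question was whether iTBS altered any receptor within an age or cognitive group. After adjustment none of the 7 receptors tested passed the threshold in young, aged, AU or AI animals in either region. In hippocampus 0 of the 7 reached an unadjusted limma p under 0.05 in any of these 4 contrasts, and a selection rule built after the study's methods selected 0 of them, though it admits only probes above the array mean and so leaves out Tlr4, Tlr9 and the dimmer members. The background was the same, with 0% of the 32417 hippocampal probes called in the young, aged, AU and AI contrasts, 0% of the 32603 cortical probes in the young, aged and AU contrasts, and 0.00613% (2 probes) in the AI contrast, which became 1 probe with the replicate number as a block. With the doubtful AI iTBS repeat averaged in as labelled, or with first arrays only, no receptor was called either, and the AI cortex count became 0 probes. The aged contrast takes the AU and AI contrasts together and so shares their animals. As bulk tissue was measured, fewer cells of a type and less RNA per cell cannot be told apart in any of these values.

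In the young hippocampus, 6 of the 7 receptors were lower and 1 was higher in iTBS animals, with a median difference of -0.33 against -0.02 over all probes. The differences ran from -0.59 to 0.18 with SE from 0.139 to 0.485, and the smallest p belonged to Tlr4 at -0.43 (limma adjusted p = 0.93). In the aged hippocampus, all 7 were higher in iTBS animals, but by 0.01 to 0.36, with a median of 0.08 against 0.00. The iTBS difference was larger in aged than in young animals for 6 of 7 receptors, with a median of 0.34 against 0.01, and it was called for 0% of probes and for none of the receptors (smallest adjusted p = 0.799). In AU hippocampus 6 of 7 receptors were higher (median 0.10) and in AI hippocampus 5 of 7 (median 0.12). The smallest p here was that of Tlr9 in AU animals, which stood 0.27 higher (limma adjusted p = 1).

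Tlr3, the sensor of double-stranded RNA, showed the spread behind these values. In the young hippocampus it stood at 2.07, 2.20, 2.57 and 2.03 in sham animals 1 to 4 and at 2.41, 2.10, 2.06 and 0.98 in iTBS animals 1 to 4. The groups overlapped, and iTBS animal 4 was the lowest of the 8, in cortex too. The difference was -0.33 ± 0.303 (SE, 95% interval -0.96 to 0.30, limma adjusted p = 0.93), and -0.03 without that animal. In young cortex Tlr3 stood at 1.77, 2.36, 2.43 and 1.91 in sham animals and at 2.00, 2.37, 2.05 and 1.29 in iTBS animals, again overlapping, with a difference of -0.19 ± 0.279 (-0.77 to 0.39, limma adjusted p = 1). Without iTBS animal 4 this difference was 0.02. In aged animals the difference of Tlr3 was 0.01 in hippocampus (limma adjusted p = 0.997) and -0.30 ± 0.201 in cortex (limma adjusted p = 1).

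In the cortex of AU animals Tlr3 was at 2.39, 2.42, 2.41 and 2.42 in the 4 sham animals and at 1.86, 1.07, 1.31, 2.21 and 2.22 in the 5 iTBS animals. All 5 iTBS animals were below all 4 sham animals, and the sham values were unusually close together. The difference was -0.67 ± 0.265 (SE, 95% interval -1.22 to -0.12), with a limma p of 0.0191 that became an adjusted p of 0.579. Tlr6 in the same animals stood at 2.21, 1.70, 1.95 and 2.39 in sham and at 1.52, 1.14, 1.30, 1.66 and 1.94 in iTBS animals, which overlapped. Its difference was -0.55 ± 0.197 (-0.96 to -0.14, limma adjusted p = 0.579), while the other 2 Tlr6 probes gave -0.27 each (limma adjusted p = 0.659 and 0.64). These 2 of 7 receptors with p under 0.05 stood beside 8.39% of all cortical probes in this contrast, and neither passed adjustment.

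AU iTBS animals 1, 2 and 3 and AU sham animal 1 were scanned in the later batch. Among the animals scanned first, the AU difference was -0.20 for Tlr3 and -0.21 for Tlr6, and among those scanned later it was -0.97 and -0.89. With slide as a block, the difference was -0.26 for Tlr3 and -0.48 for Tlr6. The mean of the 12 microglial markers was 4.45 ± 0.23 in AU sham cortex (4.23 to 4.76) and 4.38 ± 0.07 in AU iTBS cortex (4.29 to 4.48), and 5 of the 12 were higher and 7 lower, with a median of -0.19 and 0 called. Their part in the receptor values was not tested. Over all 7 receptors in AU cortex, 2 were higher and 5 lower, with a median of -0.21 against 0.04. In AI cortex 4 were higher and 3 lower (median 0.06, -0.41 to 0.53), and none had an unadjusted limma p under 0.05.

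In young cortex, 6 of 7 receptors were lower in iTBS animals, with a median difference of -0.47 against -0.01 over all probes. An unadjusted p under 0.05 was found for 1 of them, Tlr10, and for 2.71% of all probes. Its level was 0.01, -2.88, -2.91 and -3.76 in the young sham animals and -5.06, -4.85, -3.97 and -4.70 in the young iTBS animals. The groups did not overlap, but only sham animals 1 and 3 were well above background and none of the iTBS animals was. Tlr10 passed the filter through these 2 animals and AU iTBS animal 4 alone, and without either of the 2 it was not tested, so its differences in cortex are descriptions and support nothing. The fitted difference was -2.26 ± 0.725 (SE, 95% interval -3.77 to -0.75, limma adjusted p = 1). Over the alternative settings it ran from -2.72 to -0.73. Tlr4 differed by -0.47 ± 0.257, Tlr9 by -0.78 ± 0.425 and Tlr7 by -0.70 ± 0.47, each with a limma adjusted p of 1.

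**Figure D3:**
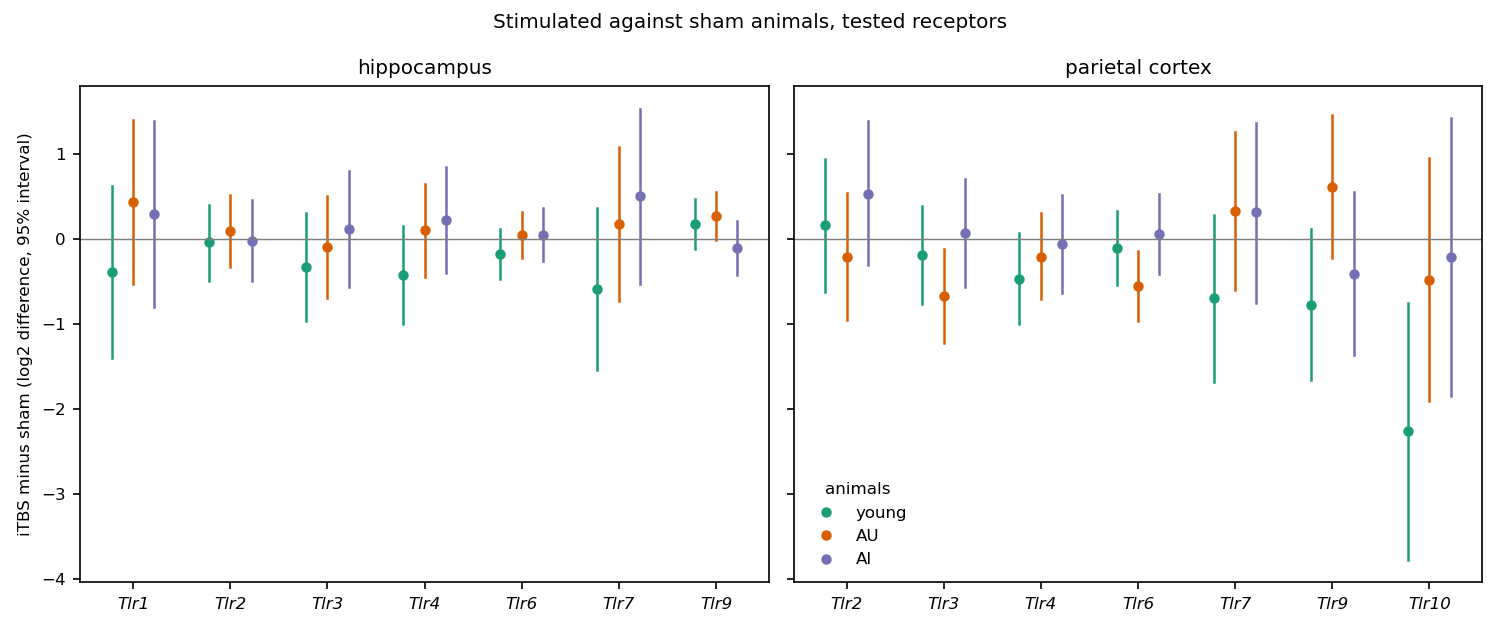
Difference between iTBS and sham animals (log2) with its 95% interval for each receptor tested, in young, AU and AI animals and in both regions. Most intervals cross 0, and those that do not are cortical Tlr10 in young animals (-2.26) and cortical Tlr3 (-0.67) and Tlr6 (-0.55) in AU animals.

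The young cortices entered 2 further comparisons of Tlr10, which are descriptions for the same reason and share animals with the one above. The fitted difference of aged minus young sham cortex was -2.02 ± 0.628 (SE, limma adjusted p = 0.327). Values in AU sham animals were -5.08, -4.92, -4.42 and -2.36 and in AI sham animals -5.35, -3.92, -4.30 and -4.90, none of them well above background. The aged minus young iTBS difference of Tlr10 was 1.91 (limma adjusted p = 1). An unadjusted p under 0.05 was reached by 9.47% of probes in the first of these comparisons and by 3.22% in the second.

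For age itself, measured in sham animals, none of the receptors was called in either region. Of all probes 0.00308% were called in hippocampus (1 probe) and 0.104% in cortex (34 probes). In hippocampus 5 of 7 receptors were higher in aged animals, with differences from -0.33 to 0.29 and a median of 0.04 against -0.02. In cortex 2 of 7 were higher, with a median of -0.24 against -0.01. The mean of the microglial markers was 4.48 ± 0.09 in young sham hippocampus (4.36 to 4.57), 4.66 ± 0.07 in AU sham (4.57 to 4.72) and 4.78 ± 0.15 in AI sham hippocampus (4.60 to 4.97), and 6 of the 12 markers had an unadjusted p under 0.05, of which Cd68, a lysosomal protein of phagocytes, was 0.76 higher (limma adjusted p = 0.135). Of all hippocampal probes 8.22% had an unadjusted p under 0.05 in this contrast. In cortex only Cd68 of these markers did, at 0.52 (limma adjusted p = 0.467), beside 9.47% of all probes. For Tlr2, Tlr3, Tlr4 and Tlr6, the 4 receptors measured in nearly every animal, the age difference in hippocampus was 0.01 to 0.29. Between AI and AU sham animals, 0% of probes were called in either region, and the median receptor difference was 0.02 in hippocampus and 0.01 in cortex. The same 4 receptors differed there by -0.09 to 0.02 in hippocampus and by -0.42 to 0.23 in cortex, and the -0.42 was cortical Tlr2, with AI sham animal 1 in it.

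The comparison that called a receptor was that of the 2 regions. In sham animals, each giving both regions, 36.0% of the 33720 probes tested differed between hippocampus and cortex, 19.2% being higher in hippocampus and 16.7% lower. Of the 8 receptors tested 7 were higher in hippocampus and 1 was lower, with a median difference of 0.28 against 0.03 over all probes. Among them Tlr1 passed the filter through hippocampus alone and Tlr10, the lower one, through cortex alone. Tlr4 passed the threshold, so 1 of 8 receptors was called, a smaller share than among all probes. With the other Tlr6 probes counted, it would be 2 of 8.

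Tlr4 in hippocampus and cortex was at -0.59 and -1.50, -0.57 and -1.23, -0.80 and -0.86, and -1.06 and -1.15 in young sham animals 1 to 4. In AU sham animals 1 to 4 it was at 0.01 and -1.44, -1.02 and -1.62, -1.29 and -1.55, and -0.72 and -1.01, and in AI sham animals at -0.39 and -1.29, -1.04 and -1.67, -0.50 and -0.87, and -1.02 and -0.86. The hippocampus was higher in 11 of 12 sham animals, AI sham animal 4 being the exception, although the ranges of the regions overlapped. The mean was -0.75 in hippocampus and -1.25 in cortex, a difference of 0.50 ± 0.133 (SE, 95% interval 0.23 to 0.78, 1.42-fold, limma adjusted p = 0.00512).

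The iTBS animals also had higher Tlr4 in hippocampus in 11 of 12 animals, by 0.71 ± 0.136 (limma adjusted p = 0.000332, with 32.6% of probes called). They did not enter the sham mean, but both fits took their spread from all 24 animals. The size of the difference varied with the scan batch. In the 8 sham animals scanned first it averaged 0.27 and in the 4 scanned later, whose regions were scanned on different days, 0.98, and a fit to the first batch alone gave 0.25 with an adjusted limma p of 0.163, which ended the call. With scan batch as a block it was 0.53 (limma adjusted p = 0.000208) and with slide as a block 0.55 (adjusted p = 0.00164). The batch block does not take up the scan days within the later batch. By the first arrays, which set the slide block, slide 2 held 7 hippocampi and 1 cortex and slide 5 held 7 cortices and 1 hippocampus. Every other slide held a single region, so region and slide can hardly be told apart. Leaving out any single sham animal kept Tlr4 called.

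The partners of Tlr4 at the membrane were measured by their own probes. Cd14, which hands lipopolysaccharide to the receptor, was 0.64 ± 0.138 higher in hippocampus (limma adjusted p = 0.000979, higher in 10 of 12 sham and 12 of 12 iTBS animals). Ly96, the MD2 chain that binds it, was 0.30 ± 0.0712 higher (adjusted p = 0.00216, 11 of 12 sham and 9 of 12 iTBS animals). Ticam2, the adaptor TRAM that links internalized Tlr4 to TRIF, was 0.79 ± 0.0796 higher (adjusted p = 7.76e-08), in 12 of 12 sham and 12 of 12 iTBS animals, where the difference was 0.72 (adjusted p = 5.33e-07). In the first scan batch alone, Ticam2 was 0.80 higher (adjusted p = 0.000114) and Ly96 0.30 (adjusted p = 0.0231), while Cd14 was 0.56 higher and no longer called (adjusted p = 0.0675).

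**Figure D4:**
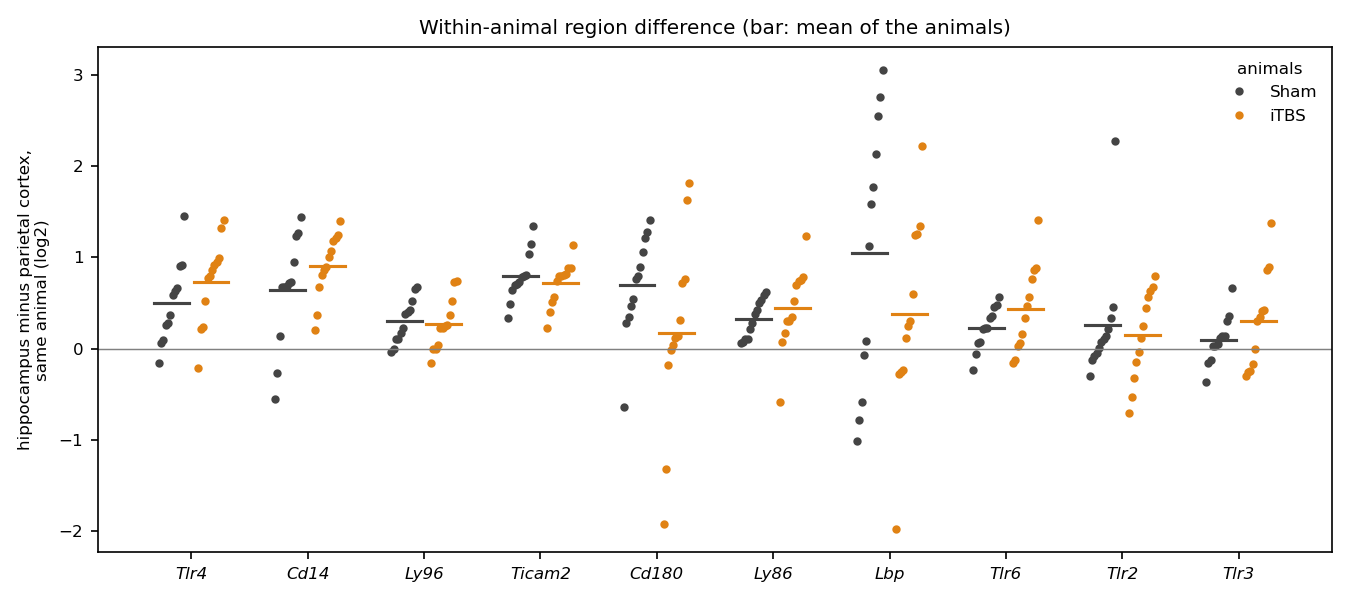
Hippocampus minus parietal cortex of the same animal (log2) for 4 receptors and 6 genes of the Tlr4 and Cd180 complexes, with sham animals in grey, iTBS animals in orange and bars at the mean of the animals. Ticam2 was above 0 in 12 of 12 sham and 12 of 12 iTBS animals and Tlr4 in 11 of 12 of each, while Tlr3 lay on both sides of 0. Lbp was well above background in only 3 hippocampi and 0 cortices.

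Tlr6 was higher in hippocampus by all 3 probes, by 0.23 ± 0.104 for the counted probe (limma adjusted p = 0.0986, higher in 10 of 12 sham animals) and by 0.27 ± 0.104 (adjusted p = 0.047) and 0.24 ± 0.0919 (adjusted p = 0.0445) for the others. The latter 2 lost their calls in 14 and 15 of 28 alternative settings, among them scaling to the 75th percentile (adjusted p = 0.123 and 0.212). In iTBS animals the 3 probes differed by 0.40, 0.32 and 0.37, each called (limma adjusted p = 0.00644, 0.0224 and 0.00434). Tlr9 was 0.30 ± 0.159 higher in hippocampus in sham animals (adjusted p = 0.146) and 0.61 ± 0.163 in iTBS animals (adjusted p = 0.0062). The sham value was 0.62 in animals scanned first and -0.33 in those scanned later. Tlr1 differed by 0.52 in sham (adjusted p = 0.166) and by 1.05 in iTBS animals (adjusted p = 0.00845), and Tlr7 by 0.52 and 0.57, neither called. Tlr1 passed the filter through hippocampus alone and was well above background in none of the iTBS cortices. Its differences between regions are therefore descriptions and support nothing. Whether the regional differences of sham and iTBS animals differed from each other was not tested.

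Tlr2 and Tlr3 were close between the regions. Tlr3 differed by 0.10 (SE 0.112, 95% interval -0.13 to 0.33, limma adjusted p = 0.527) and Tlr2 by 0.25 (SE 0.148, -0.05 to 0.56, adjusted p = 0.194), higher in 8 of 12 sham animals. The widest Tlr2 difference was that of AI sham animal 1, with 2.95 in hippocampus and 0.68 in cortex, and without it Tlr2 differed by 0.07 (adjusted p = 0.582). Of the receptors tested only Tlr10 had a lower mean in hippocampus, by -0.91 ± 0.436 (limma adjusted p = 0.111), and the young sham cortices described above had the highest values. In iTBS animals it was 0.37 in the other direction, with young iTBS animal 4 at 0.31 in hippocampus and -4.70 in cortex. Over the other 11 iTBS animals the mean difference was -0.06.

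Of the 60 other genes of the pathway, from receptors to products, 48 were tested between regions, where 9 were called higher and 4 lower in hippocampus, a smaller share than the 36.0% of all probes, with a median of 0.01. Co-receptors and chaperones held 6 of these 13, with 5 of 8 tested higher and 1 lower. Beside Cd14 and Ly96 these were Cd180, a Toll-like receptor relative without a signaling domain (0.70 higher, adjusted p = 0.0247 by limma), its partner Ly86 (0.32 higher, adjusted p = 0.00909, in 12 of 12 sham and 11 of 12 iTBS animals) and Lbp, which carries lipopolysaccharide in plasma (1.05 higher, adjusted p = 0.0151). Lbp was well above background in 3 hippocampi and 0 cortices and passed the filter through hippocampus alone. Its difference is therefore a description and supports nothing, though the counts above include it. Cd36, a scavenger receptor that assists Tlr2, was lower (-0.49, adjusted p = 0.0476). In iTBS animals Ly86 was again higher by 0.43 (limma adjusted p = 0.00119), while Cd180 differed by 0.22 (adjusted p = 0.519), Lbp by 0.35 (adjusted p = 0.457) and Cd36 by -0.02.

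Downstream, 1 of 3 adaptors (Ticam2) was called. Of the kinases and ubiquitin ligases 1 of 13 was called, Ikbke, a kinase of the interferon branch, at -0.43 (limma adjusted p = 0.00339). Of the transcription factors Irf5 was lower (-0.20, adjusted p = 0.0116) and Irf7 higher (0.30, adjusted p = 0.0387). Of the endogenous ligands S100a9, an alarmin of neutrophils, was lower (-0.45, adjusted p = 0.0122) and Vcan, a matrix proteoglycan, higher (0.43, adjusted p = 0.005). Among the induced products 1 of 7, Ptgs2, the inducible cyclooxygenase, was higher (0.48, adjusted p = 0.0215), and it is also a gene that neurons express. In iTBS animals Vcan differed by 0.45 (limma adjusted p = 0.00467) and Ikbke by -0.36 (adjusted p = 0.0144), both called, while S100a9 (-0.34), Irf7 (0.25), Ptgs2 (0.29) and Irf5 (0.00) were not. Irf7 and Cd36 each lost their call in sham animals in 14 of 28 settings, and Ptgs2 averaged -0.01 in the 4 sham animals scanned later. None of the 5 inhibitors tested was called, Socs1 being nearest at 0.61 (adjusted p = 0.122). Socs1 was well above background in only 7 hippocampi and 4 cortices. Of the further receptors, Tlr12 was well above background in 24 hippocampi and 20 cortices and was 0.36 ± 0.15 higher in hippocampus (adjusted p = 0.0653), Tlr11 was measured in 1 cortex, and Tlr13 had no named probe.

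Cell type markers were called between the regions too, in a comparison that called 36.0% of all probes. Counts from lists this short are descriptions, and that of microglia was a smaller share than among all probes. Of 12 microglial markers 3 were called higher in hippocampus, C1qa by 0.39, Itgam by 0.36 and Tmem119 by 0.49, while Cx3cr1 differed by -0.05 and Aif1 by 0.00, with a median of 0.17 for the list. All 4 choroid plexus markers were called higher (median 1.73), 3 of 6 astrocyte markers were higher (Gfap by 1.51), 3 of 4 oligodendrocyte markers were higher and 2 of 4 endothelial markers were lower. Of 5 markers of border macrophages and blood myeloid cells 1 was called, the S100a9 already given among the ligands, of 4 neuronal markers 1 was called higher and 2 lower, and of 3 lymphocyte markers 1 was called higher. The choroid plexus marker Kl was well above background in 7 hippocampi and 1 cortex, and the lymphocyte marker Cd3e in 24 and 1. Both passed the filter through hippocampus alone, so their differences are descriptions and support nothing. The mean of the choroid plexus markers ran from -0.16 to 3.40 in sham hippocampus (4 markers measured) and from -0.59 to 3.04 in sham cortex (3 measured). The part of these cells in the receptor differences was not tested.

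The same pathway genes were examined for the effect of iTBS. Of the 47 tested in each region, 0 were called in the young, aged, AU or AI contrasts, and 0 to 4 had an unadjusted limma p under 0.05, beside 1.88% to 8.39% of all probes. In young hippocampus these 4 were Lbp (-1.83 ± 0.676), Socs1, an inhibitor of cytokine signaling (-0.91 ± 0.355), Ticam2 (-0.40 ± 0.173) and Irf5 (0.24 ± 0.116), all with a limma adjusted p of 0.93. Lbp was well above background in only 3 of 24 hippocampi and Socs1 in only 7, so their differences rest largely on values near background. Every Socs1 difference in hippocampus, here and below, carries this limit. In aged hippocampus the 2 were Ikbke (0.28 ± 0.11) and Ly86 (0.25 ± 0.111), each with a limma adjusted p of 0.978. AU hippocampus had Cxcl10, an interferon-induced chemokine, at 1.30 ± 0.592, Socs1 at 0.73 ± 0.336 and Cd180 at -0.43 ± 0.203, each with a limma adjusted p of 1. In AI hippocampus, Irak4, the kinase that MyD88 recruits, was at 0.42 ± 0.157 and Cd36 at -0.91 ± 0.392, again with a limma adjusted p of 1.

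In AU cortex, where Tlr3 and Tlr6 were lower before adjustment, all 6 endogenous ligands and all 7 induced products tested were lower in iTBS animals, with medians of -0.55 and -0.43 against 0.04 over all probes, and none was called. Bgn, a matrix proteoglycan that Tlr2 and Tlr4 bind, was at -0.89 ± 0.325, Myd88 at -0.42 ± 0.202 and Tab1, a subunit of the kinase complex above NF-kappaB, at -0.37 ± 0.161. Each of these had an unadjusted p under 0.05 and a limma adjusted p of 0.579. The aged cortex as a whole, which holds the same animals, had Bgn at -0.72 ± 0.246 and Cd36 at -0.74 ± 0.337, with a limma adjusted p of 1 for both. The iTBS contrasts of young and AI cortex had 0 of 47 genes with an unadjusted limma p under 0.05. The aged minus young iTBS difference, called for 0% of cortical probes as well, had 0 of 47 in cortex and 2 of 47 in hippocampus, Socs1 at 1.30 ± 0.437 and Ticam2 at 0.50 ± 0.213, both with a limma adjusted p of 0.799. Unadjusted p values under 0.05 were reached there by 3.22% of cortical and 4.31% of hippocampal probes.

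With age, in sham animals, none of the 47 pathway genes was called in either region, and 7 in hippocampus and 3 in cortex had an unadjusted limma p under 0.05. Of all probes 8.22% and 9.47% did in these contrasts. In hippocampus S100a9 stood 1.37 higher in aged animals (limma adjusted p = 0.447), Irf7 0.54 higher (adjusted p = 0.58), Il1b, an inflammatory cytokine, 0.64 higher (adjusted p = 0.605) and Socs1 at -1.03 (adjusted p = 0.503). In cortex Irf7 stood 1.05 higher (limma adjusted p = 0.369) and Vcan at -0.48 (adjusted p = 0.391). Between AI and AU sham animals, Irak4 was at -0.39 in hippocampus (limma adjusted p = 1), and Irak2 was at 0.35 and Ptgs2 at -0.63 in cortex (adjusted p = 0.716 for both).

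Among the 11648 named genes well measured in both regions, those whose levels followed a receptor most closely from animal to animal were ranked by the mean of the regions' Pearson r, over 24 animals and after removal of group and scan batch means. These values are descriptions, and the points share arrays, slides and RNA quality. For Tlr2 they were Ska2 (r = 0.70 in hippocampus and 0.88 in cortex), Afmid (0.66 and 0.91) and Ctse (0.64 and 0.90). The cortical values of Tlr2 include the outlying AI sham animal 1, at 0.68, and r without that animal was not computed. For Tlr3 the closest genes were 9130023H24Rik (0.67 and 0.75), Apln (0.74 and 0.65) and C6h14orf28 (0.68 and 0.66). Tlr4 was followed by RGD1309362 (0.74 and 0.78), Vamp5 (0.80 and 0.70) and Hist1h4b (0.76 and 0.71), and Tlr6 by Ripk3 (0.75 and 0.88), Purb (0.81 and 0.81) and Il10rb (0.79 and 0.82). Without removal of group and scan batch means, the 3 probes of Tlr6 itself correlated at 0.45 to 0.65 in hippocampus and at 0.72 to 0.86 in cortex. These values are thus not on the same measure as those above, which are also the highest of 11648 genes.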

How the data were processed

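Total RNA of hippocampus and parietal cortex was labeled with a single dye and hybridized to Agilent rat arrays. The deposited scanner files (Feature Extraction 12.0.3.1) give a processed signal intensity for 62976 features, background-subtracted by the software and not normalized between arrays. A second deposited table holds standard scores. Each score was within 0.005 of a z-score recomputed from the array's log intensities, and this table served as an alternative.

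Groups came from the labels. Of the features, 58717 were not controls, on 45598 probes. Outlier spots (267 to 1448 per array) were dropped, and copies of a probe and repeat arrays of an animal were averaged. Log2 intensities were converted per array to the study's z-score and returned to log2 units with the average SD over arrays, 4.08, so any shift common to most probes is removed. Probes were named by unversioned accession through RefSeq (assembly GRCr8), which gave 46.3% of probes a symbol. Symbols come only from that table, so further probes of a named gene may be unnamed.

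Probes well above background in at least 3 of 24 animals of a region were tested with limma 3.58.1 in R 4.3.3, with 6 group means and moderated two-sided tests, and called at a Benjamini-Hochberg adjusted p under 0.05 over all probes tested. Regions were compared within animals, with the animal as a block. Age contrasts average AU and AI. A rule built after the study's methods (ANOVA over the 6 groups and z-test p under 0.05, false discovery rate under 0.3, z-ratio over 1.5, mean z-score above 0) was an alternative for the iTBS contrasts. The number of arrays limits the precision, and p values measure the spread between animals. The script was checked on simulated data with known changes.

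Of 22 same-numbered pairs of animals 9 deviated together (correlation over 0.1), among them all 3 in AI cortex, but not every pair elsewhere, so the number was a block only as an alternative. The receptors and gene lists were chosen with earlier results of these data known, and support nothing by themselves. Every receptor was to be described, with SE and p where its unadjusted p was under 0.05. Of the pathway lists, called genes were named and, where none was, the gene with the smallest p, given here only where that p was under 0.05. Single animals, Tlr4, Tlr7 and Tlr9 with a larger p, Tlr12, Socs1 between regions and the cell type markers were added after their values were seen.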

Additional observations from a re-analysis of the deposited data

Results flagged for a closer look

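Within each group of 4 or 5 animals, the gap between the most extreme animal and its nearest neighbour was set against the range of the group for every receptor tested. Of 70 such sets of values 3 (4.29%) held an animal whose gap was past the 95% limit, which is near the 1 in 20 that chance gives. In the hippocampus of young sham animals, Tlr2 was lowest in animal 2, at 2.54, while the other 3 stood between 2.94 and 3.00. In the hippocampus of young iTBS animals, Tlr7 was lowest in animal 3, at -2.95. In the cortex of AU iTBS animals, Tlr10 was highest in animal 4, at -2.38, the single animal of the 5 in which it was well above background, while the others stood between -5.40 and -5.09.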

How the results depend on the processing

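Counts of calls moved with the processing as follows, the cause not being tested. The count of receptors called between regions, 1 as reported (Tlr4), became 2 with normexp background correction, 3 with scan batch or slide as a block, 2 in the later scan batch only, 5 in sham and iTBS animals together and 4 in iTBS animals only. It was 1 in the first scan batch only, where it was Tlr9 at 0.57 (limma adjusted p = 0.00147) and not Tlr4. The counts in iTBS animals only and in all animals together include Tlr1, which passed the filter through hippocampus alone. In the other 14 comparisons it was 0 under every alternative run. The study's selection rule, as rebuilt and run on the 8 iTBS contrasts only, selected, between iTBS and sham, 59 probes in young, 14 in aged, 12 in AU and 26 in AI hippocampus, and 40, 20, 23 and 41 in cortex, where limma called 0, 0, 0, 0, 0, 0, 0 and 2. The 2 probes of AI cortex became 0 with 75th percentile scaling, normexp, the stricter filter of 12 animals, first arrays only, every repeat averaged as labelled, slide as a block or the first scan batch only, 10 without a filter, 5 with scan batch as a block and 53 in the later batch only. AU cortex had 1 with 75th percentile scaling, 5 without a filter or with first arrays only and 70 in the later batch, aged cortex 1 with either block and 6 in the later batch, young cortex 7 in the later batch, AI hippocampus 5 without a filter, and AU hippocampus 5 with slide as a block. The age difference in sham hippocampus (1 probe) became 6 with 75th percentile scaling, 2 with quantile normalization, normexp or no filter, 3 with the stricter filter, 23 with slide as a block, 0 in either scan batch alone and 166 with iTBS animals added. That in sham cortex (34) became 15 and 0 in the first and later batch and 131 with iTBS animals added. AI minus AU sham had 4 in hippocampus with slide as a block and 44 in cortex in the later batch. The difference of iTBS effects in cortex had 5 and the region comparison 5372 in the later batch. In the later batch AI sham, AI iTBS, AU sham and young iTBS each held 1 animal, assumed to vary like the other groups, and counts there rest on these single animals. The fits to the later batch, the iTBS animals only and all animals between regions were chosen after seeing the data.

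Numbers that animals share in the labels gave 22 same-numbered pairs with correlations of -0.28 to 0.40, of which 9 were over 0.1. With the replicate block, probes called were 0 for age in sham hippocampus and 54 in sham cortex, 1 each for AI minus AU sham cortex and for iTBS in AU, AI and aged cortex, and no receptor was called outside the region comparison. Without the block by animal, Tlr4 differed between regions by 0.50 (limma adjusted p = 0.0103).

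Signs turned for values near 0 and for some larger ones, called differences between regions among them. Tlr3 in aged hippocampus, 0.01 as reported, was 0.00 with first arrays only, -0.13 in the later batch, -0.06 with the replicate block, -0.02 with 75th percentile scaling or the study's rule, -0.07 with scan batch and -0.01 with slide as a block, and -0.20 to 0.19 when an animal was left out. Tlr3 in young hippocampus, -0.33 as reported, was 0.27 in the later batch. In young cortex it was -0.34 to 0.02 when an animal was left out, turning to 0.02 without iTBS animal 4. Between regions, Tlr10, -0.91 as reported, was 0.37 in iTBS animals only. Cd36, called at -0.49, was 0.14 in the later batch, and Ptgs2, called at 0.48, was -0.14 there. Leaving out each animal in turn gave 18 to 51 probes for age in sham cortex, 0 to 9 in sham hippocampus, 0 to 5 for iTBS in AI cortex, 0 to 3 in AU cortex, 0 to 2 in young hippocampus, 0 to 1 in aged hippocampus, young cortex and aged cortex, 0 to 1 for AI minus AU in each region and 10844 to 12148 between regions, where 1 receptor was called each time. Tlr3 and Tlr6 in AU cortex ranged over all alternatives from -0.97 to -0.20 and from -0.89 to -0.21. Signal limits Tlr1, Tlr5, Tlr8 and Tlr10, whose levels lay largely at or under the background. It also limits Lbp and Socs1, well above background in 3 and 7 hippocampi and in 0 and 4 cortices.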

Other observations

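The hippocampus array whose labels conflict, and which was placed in no group, had Tlr2 at 3.26, Tlr3 at 2.53, Tlr4 at -0.86, Tlr6 at 2.17, Tlr7 at -1.83 and Tlr9 at -1.78, all well above background. Tlr1 (-3.00), Tlr5 (-4.13), Tlr8 (-4.96) and Tlr10 (-5.16) were not well above background on it. The cortex repeat array of AI iTBS animal 2 that was left out had Tlr2 at 2.73, Tlr3 at 2.18, Tlr4 at -1.67, Tlr6 at 1.33 and Tlr9 at -1.51. In AU iTBS animal 5, hippocampal Tlr7 stood at 0.24 and Tlr1 at -1.60, each the highest of the 24 hippocampi.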
